A study of Homo sapiens with 3 samples.

Results

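The CRL4-DCAF1 ubiquitin ligase was followed at the RNA level in AB12 cells, a mouse malignant mesothelioma line, through the 5 genes that encode its subunits: Vprbp (also called Dcaf1), Ddb1, Cul4a, Cul4b and Rbx1. These were chosen by name, and each had 1 row among the 13936 genes of the deposited table. The series compared 2 libraries labelled shNF2, numbered 20 and 21, with 1 library labelled shSC, taken as the control hairpin. All 3 came from the same cell line grown in RPMI with 10% serum. The source labels call both shNF2 libraries knockdown (KD) and shSC wild type (WT). What the numbers 20 and 21 stand for, and whether the libraries came from separate cultures, is not stated in the labels. The p-values therefore reflect differences among these 3 libraries alone, and those may be technical. Reads are from polyA-selected bulk RNA, and the values below are read counts scaled by the authors to make the libraries comparable.

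Cullin-RING ligases attach ubiquitin to proteins and thereby often mark them for destruction. In the CRL4 family a CUL4 scaffold holds the RING protein RBX1 at one end, where the ubiquitin-carrying enzyme docks, and the adaptor DDB1 at the other, where interchangeable receptors bring in the substrate. DCAF1 is one of those receptors and was first known as the protein bound by the Vpr protein of HIV. Merlin, the tumour suppressor encoded by NF2, is known to enter the nucleus, bind DCAF1 and inhibit this ligase, and in NF2-mutant tumour cells the ligase has been described to act on the Hippo kinases LATS1 and LATS2. That control is exerted on the protein complex, whereas the data here are RNA levels.

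Nf2 itself had 486 scaled counts in library 20 and 458 in library 21, against 1539 in shSC. Both shNF2 libraries were therefore lower by a similar amount (log2 fold change -1.70 ± 0.24, SE; limma adjusted p = 0.00555). This call was lost after quantile normalization (adjusted p = 0.496) and with no variance trend (0.187), at nearly the same fold change. In bulk RNA such as this, fewer cells holding a transcript and less of it per cell cannot be told apart. Reads in genes numbered 25837151 in library 20, 26829163 in library 21 and 29532600 in shSC. The mesothelial gene Msln, which encodes mesothelin, was present at 9722 and 8977 scaled counts in libraries 20 and 21 and 7397 in shSC, and 5 of 9 mesothelial markers had a row, summing to 39947 and 33759 in libraries 20 and 21 and 43900 in shSC. These markers went both ways: Krt7 had 290 and 183 scaled counts in libraries 20 and 21, against 49.7 in shSC, and passed (log2 fold change 2.19, limma adjusted p = 0.0119), whereas Krt8 (-0.37), Krt18 (-0.36) and Krt19 (-0.86) were lower in both libraries without passing. Wt1, Upk3b, Calb2 and Pdpn, the other mesothelial markers, had no row in the table used here. No lymphocyte or endothelial marker had a row (0 of 11 and 0 of 8), while 4 of 14 macrophage markers summed to 8559 and 8070 scaled counts in libraries 20 and 21 and 9307 in shSC, most of them from Mrc1 and Cd14. Within that list Lyz2 had 260 and 108 in libraries 20 and 21, against 56.5 in shSC (limma adjusted p = 0.191), and Cd14 had 2576 and 1659, against 3222 in shSC (limma adjusted p = 0.440). Of 10 fibroblast and smooth muscle markers 3 had a row, with sums of 21.97, 90.4 and 14.6 in library 20, library 21 and shSC; Acta2 alone made up 69.0 of the sum in library 21, from 71 reads, against 1 read in each of the other libraries. The part of these markers in the values below was not tested.

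All 5 subunit genes were well expressed in every library, with between 2049 and 16811 reads each, and none passed the test between shNF2 and shSC. Their limma adjusted p-values lay between 0.686 and 0.963, and 0 of 5 had an unadjusted p under 0.05; edgeR, with adjusted p-values between 0.703 and 0.967, and DESeq2 also called 0 of 5. Over all 12813 genes tested, 0.843% passed with limma at an adjusted p under 0.05, and 9.27% had an unadjusted p under 0.05; edgeR called 0.632% of them, and DESeq2 0.812% of the 12316 genes to which it gave an adjusted p. Both shNF2 libraries lay above shSC for 3 subunits (Vprbp, Ddb1 and Cul4b) and below it for 1 (Rbx1), and they fell on either side of it for Cul4a. Among all genes tested both libraries lay above shSC for 36.1% and below it for 35.8%. With so few subunits these shares carry no result beyond the values of the single genes.

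**Figure D1:**
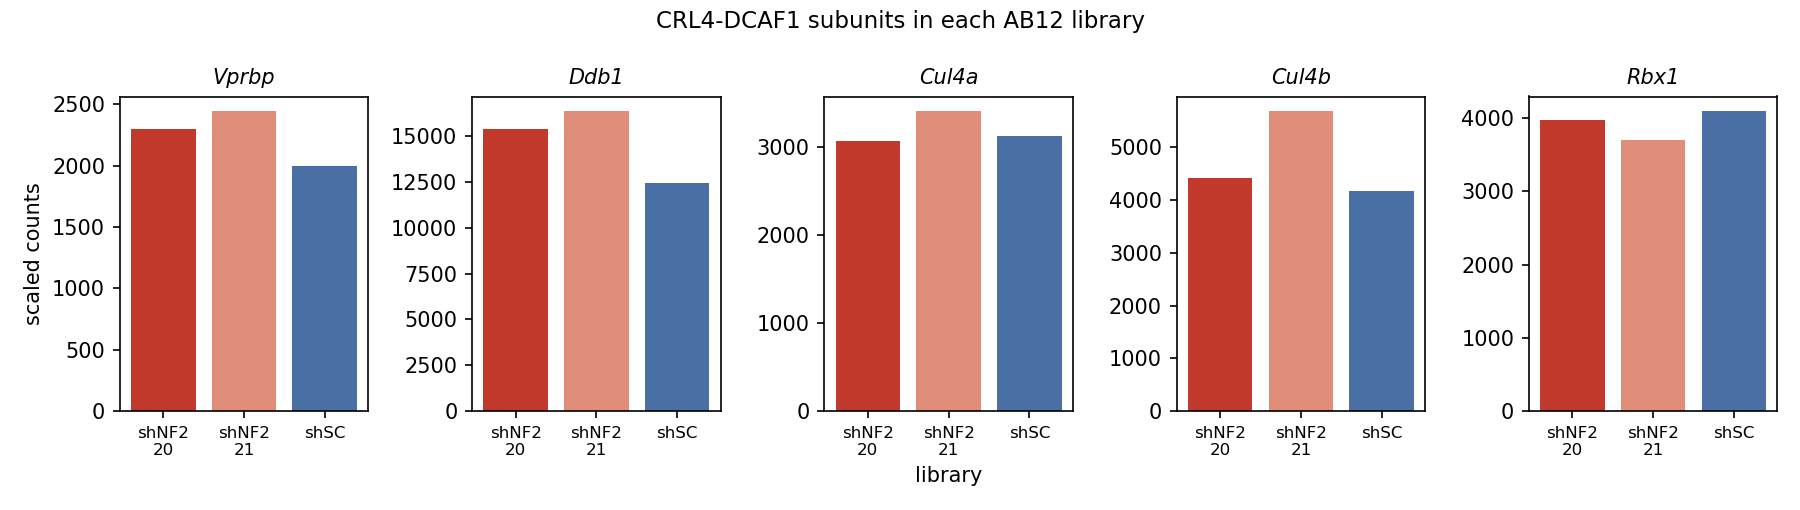
Scaled counts (vertical axes, each from 0 and with its own scale) of the 5 subunit genes in libraries shNF2 20, shNF2 21 and shSC; each bar is 1 library, with no error bar. Ddb1 reaches 15373 and 16340 in libraries 20 and 21, against 12430 in shSC, and Cul4b in library 21 (5682) stands apart from library 20 (4427) and shSC (4180).

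Vprbp encodes DCAF1, the receptor that merlin binds. It had 2295 scaled counts in library 20 and 2442 in library 21, against 1995 in shSC. Both shNF2 libraries were close to each other and above shSC. Both lay above shSC, at any distance from each other, for 36.1% of all genes tested. The log2 fold change was 0.25 ± 0.21 (SE, limma adjusted p = 0.775), with a 95% interval of -0.21 to 0.70. That interval runs from a fall to 0.865-fold, through equal levels, to a rise to 1.63-fold. The size of this fold change was at percentile 52.2 of all genes tested, in the middle of the table.

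Ddb1 encodes the adaptor that links every CRL4 receptor to the cullin, and it had the largest fold change of the 5 subunits. It had 15373 scaled counts in library 20 and 16340 in library 21, against 12430 in shSC. Both shNF2 libraries were again higher and near each other. Its log2 fold change of 0.35 ± 0.21 (SE) did not pass (limma adjusted p = 0.686; 95% interval -0.11 to 0.81), and its size lay at percentile 67.9 of all genes tested. Under quantile normalization it was 0.50, with an unadjusted limma p of 0.0481 and an adjusted p of 0.721.

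Cul4a and Cul4b encode alternative scaffolds that carry the same adaptor and RING subunit. Cul4a had 3063 scaled counts in library 20 and 3399 in library 21, against 3117 in shSC. Library 20 was thus just below and library 21 just above shSC (log2 fold change 0.05 ± 0.21, SE; limma adjusted p = 0.963; 95% interval -0.40 to 0.50). Cul4b had 4427 scaled counts in library 20 and 5682 in library 21, against 4180 in shSC. Here library 20 lay near shSC and library 21 stood apart, with log2 fold changes over shSC of 0.08 and 0.44. The joint value of 0.26 ± 0.22 (SE) did not pass (limma adjusted p = 0.772; 95% interval -0.22 to 0.75). The gap between the shNF2 libraries was wider for Cul4b than for the other subunits: it was 0.36 on the log2 scale, at percentile 69.6 of such gaps over all genes tested, and between 0.09 and 0.15 in size for the others.

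Rbx1 encodes the RING subunit, which is shared with most other cullins. It had 3971 scaled counts in library 20 and 3698 in library 21, against 4091 in shSC. Both shNF2 libraries were below shSC, by little. The log2 fold change was -0.09 ± 0.21 (SE; limma adjusted p = 0.928), with a 95% interval of -0.54 to 0.35.

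**Figure D2:**
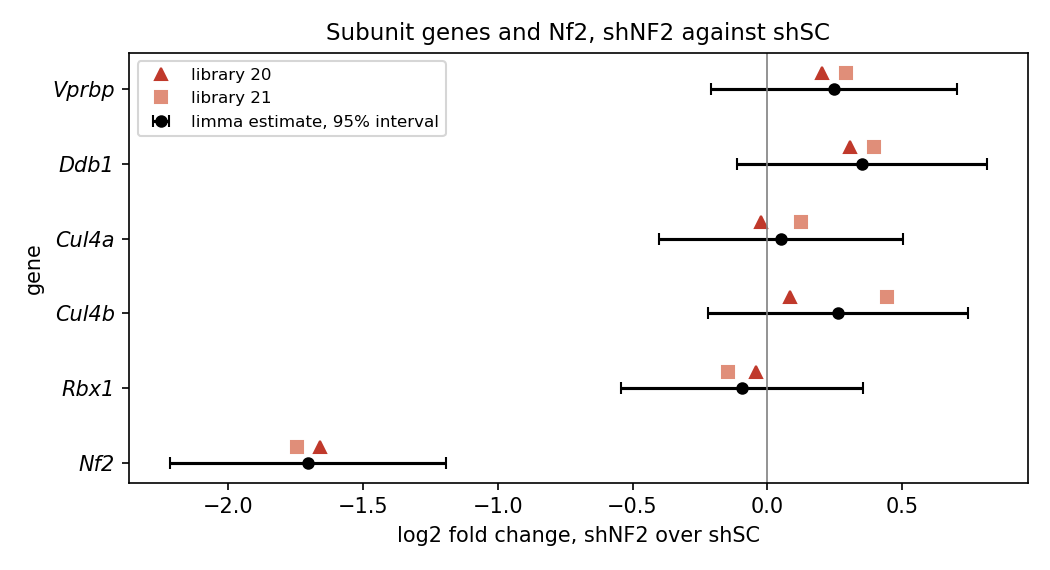
Log2 fold change of shNF2 over shSC (horizontal axis) for the 5 subunit genes and Nf2; black points and bars are the limma estimate with its 95% interval, and coloured marks are each shNF2 library against the shared shSC library. All 5 subunit intervals include 0, and that of Nf2, at -1.70, does not.

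Counting error was small beside these intervals. From the reads alone, the ratio to shSC for Vprbp was 1.15 (exact 95% counting interval 1.08 to 1.22) in library 20 and 1.22 (1.15 to 1.30) in library 21. For Ddb1 it was 1.24 (1.21 to 1.27) and 1.31 (1.28 to 1.35). For Cul4b it was 1.06 (1.01 to 1.11) and 1.36 (1.31 to 1.41). For Cul4a the ratio was 0.983 (0.934 to 1.03) in library 20 and 1.09 (1.04 to 1.14) in library 21, and for Rbx1 it was 0.971 (0.929 to 1.01) and 0.904 (0.865 to 0.944). The intervals of Vprbp, Ddb1 and Cul4b thus left out 1 in both libraries, and those of Cul4a and Rbx1 did so in library 21 alone. The share of all genes with such intervals was not computed, so this count carries no result about the subunits. Both ratios of a gene also share the same shSC library. The intervals compare single libraries and cover counting error only, and PCR reads without molecular identifiers are not independent molecules. The standard error of about 0.21 draws on the spread between the shNF2 libraries, with 1 residual degree of freedom. It rests more on the variance trend over all genes, with 11.9 prior ones, and shSC has no replicate. The smallest log2 fold change that passed anywhere in the table was 0.99 in size, for Ankrd1, which is larger than the upper interval bound of every subunit.

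The relative amounts of the subunit RNAs were compared between libraries as ratios of scaled counts. Since transcript lengths differ between genes, the size of a ratio cannot be read, only its change between libraries. The ratios were not corrected for the length and GC trends described below, so such changes may include those trends. Cul4b per Cul4a was 1.45 in library 20 and 1.67 in library 21, against 1.34 in shSC, so that Cul4b made up 59.1%, 62.6% and 57.3% of the counts of both cullins in library 20, library 21 and shSC. Vprbp per Ddb1 was 0.149 in each shNF2 library, against 0.161 in shSC, so this ratio was alike in both for the counts as deposited. After the length and GC correction given below, the libraries were less alike. The log2 fold changes of Vprbp and Ddb1 were then 0.17 and 0.28 in library 20, and 0.14 and 0.38 in library 21. Ddb1 per Rbx1 was 3.87 and 4.42 in libraries 20 and 21, against 3.04 in shSC. The differences between these ratios were not tested.

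The fold changes of library 21 varied with transcript GC content, and the subunits differ in GC and in length. No mouse annotation was used here, so the longest protein-coding transcript of the human gene served as a stand-in. By that measure genes under 40% GC had a median log2 fold change of 0.01 in library 20 and 0.18 in library 21, and genes of at least 60% GC had -0.03 and -0.31. The stand-in GC was 37.7% for Cul4b, 42.1% for Cul4a, 48.4% for Rbx1, 48.6% for Vprbp and 53.5% for Ddb1. The stand-in length was 4902 bases for Cul4b, 5666 for Cul4a, 1188 for Rbx1, 5951 for Vprbp and 4506 for Ddb1. Length and GC were fitted together, and the share of each in the shifts below was not tested. After each library's trend with length and GC was subtracted, a step added after the data had been seen, the log2 fold change of Cul4b in library 21 was 0.24 and that of Vprbp 0.14, while Ddb1 stood at 0.38. In library 20 the corrected values were 0.07 for Cul4b, 0.17 for Vprbp and 0.28 for Ddb1. Cul4a was -0.05 in library 20 and -0.09 in library 21 after the correction, and its joint value changed sign to -0.069 (limma adjusted p = 0.894). Rbx1 was -0.03 and -0.01 in libraries 20 and 21, with a joint value of -0.022 in place of -0.09. Vprbp, Ddb1 and Cul4b remained above shSC in both libraries, and no subunit passed.

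**Figure D3:**
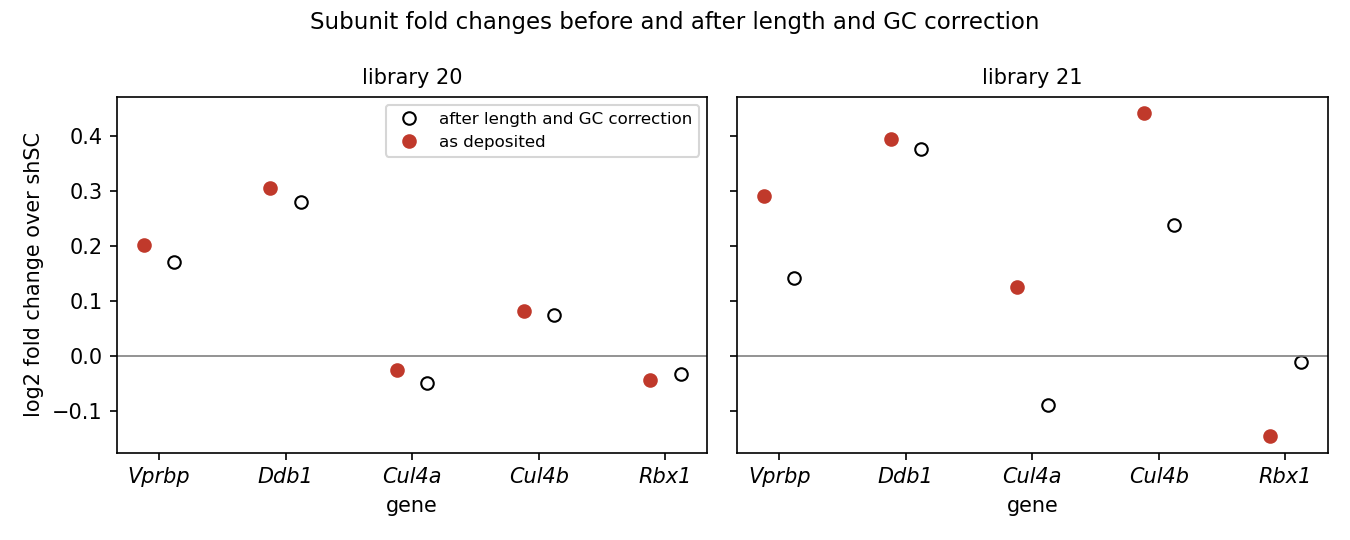
Log2 fold change over shSC (vertical axis) of the 5 subunit genes in library 20 (left) and library 21 (right), as deposited (filled) and after subtraction of each library's trend with stand-in transcript length and GC (open). In library 21 Cul4b moves to 0.24 from 0.44 and Vprbp to 0.14 from 0.29, whereas Ddb1 moves less, to 0.38 from 0.39.

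The genes that work around these subunits were described from lists fixed by name, and 0 of the 72 list genes tested passed with limma, edgeR or DESeq2. At the 0.843% of all genes that passed with limma, a list of this size would hold few calls or none. The counts of genes above and below shSC that follow stand beside 36.1% and 35.8% over all genes tested. The other CRL4 receptors compete with DCAF1 for DDB1. All 22 listed genes passed the filter on low values, and both shNF2 libraries lay above shSC for 9, below it for 7 and on either side for 6, with a median log2 fold change of 0.05 (all genes tested, 0.00). Dcaf4 had 663 and 536 scaled counts in libraries 20 and 21, against 409 in shSC (log2 fold change 0.54 ± 0.26, SE; limma adjusted p = 0.560). Phip, a bromodomain receptor, had 1152 and 1646 in libraries 20 and 21, against 958 in shSC (0.52, 0.41 after length and GC correction). Its stand-in GC was 36.6%. Dcaf7 and Dcaf17 had log2 fold changes of 0.32 and 0.31. The proteins that associate with DDB1 as accessory factors, Dda1 and Det1, had values of -0.13 and -0.01, and that of Det1 changed sign to 0.015 under quantile normalization.

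Among other cullins and their RING and adaptor subunits, 9 of 10 had a row; 2 were above shSC in both libraries, 4 below in both and 3 on either side, with a median log2 fold change of -0.19. Cul1, the scaffold of the SCF ligases, had 4247 and 4752 scaled counts in libraries 20 and 21, against 3640 in shSC (0.30). Skp1a, the SCF adaptor, had 16267 and 19599 in libraries 20 and 21, against 24395 in shSC (-0.45), and Tceb1, which encodes elongin C, the adaptor of the CUL2 and CUL5 ligases, had -0.42. The RING gene Rnf7, which encodes the paralogue of RBX1 that works with CUL5, had -0.34. After the length and GC correction the values were 0.22 for Cul1, -0.57 for Skp1a, -0.46 for Tceb1 and -0.41 for Rnf7. Tceb2, which encodes elongin B, the partner of elongin C, had 0.02 in library 20 and -0.65 in library 21.

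CRL ligases are switched on when NEDD8 is attached to the cullin and switched off when the COP9 signalosome removes it. Of 24 genes of this cycle 23 were tested, and both shNF2 libraries lay above shSC for 5, below it for 11 and on either side for 7, with a median log2 fold change of -0.08. Myeov2, which encodes the small COP9 subunit COPS9, had 3949 and 3248 scaled counts in libraries 20 and 21, against 5205 in shSC (log2 fold change -0.54 ± 0.22, SE; limma adjusted p = 0.437); after the length and GC correction its log2 fold change was -0.28. Cops3, another subunit, had 14451 and 14089 in libraries 20 and 21, against 19387 in shSC (-0.44). Nae1 and Uba3, the partners of the NEDD8-activating enzyme, had log2 fold changes of -0.40 and -0.39. Of 7 ubiquitin-conjugating enzymes that serve cullin ligases, 6 were tested, with 1 above and 3 below shSC in both libraries and a median of -0.11. Ube2d2a had -0.45, Ube2d1 had 0.14 and Ube2g1 had -0.13. Cdc34, the enzyme that extends ubiquitin chains on cullin ligases, had 7933 scaled counts in library 20 and 3220 in library 21, against 5826 in shSC, so that the shNF2 libraries lay far apart on either side. Its joint value of -0.20 changed sign to 0.056 after the length and GC correction.

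**Figure D4:**
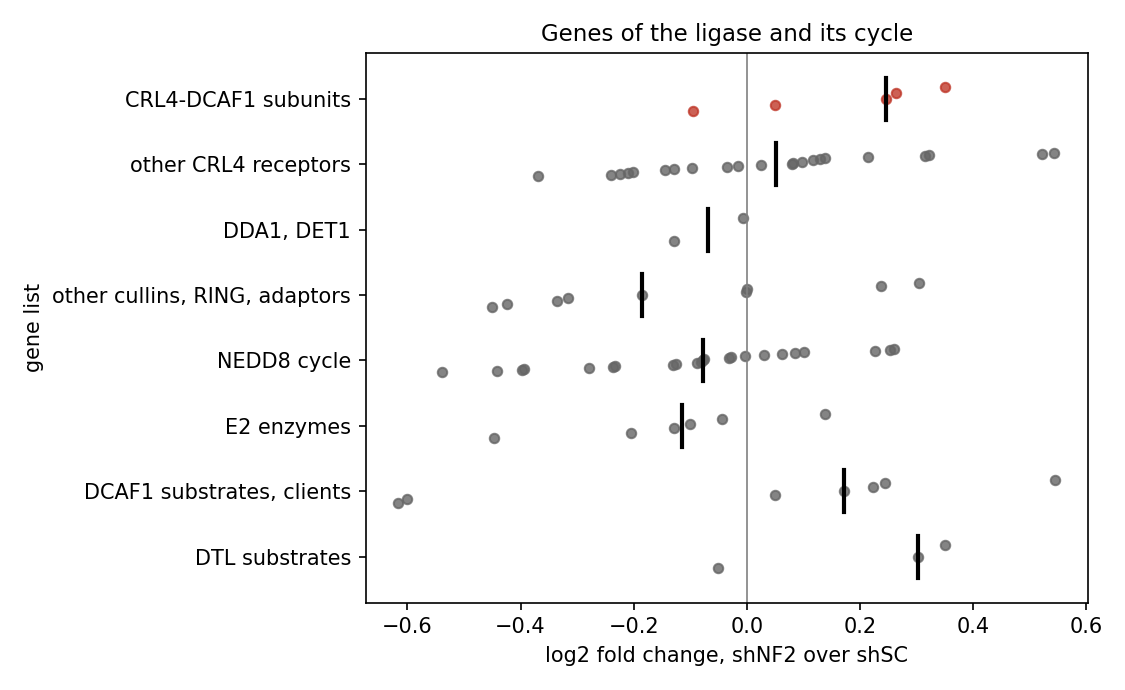
Log2 fold change of shNF2 over shSC (horizontal axis) for every tested gene of each list; each point is a gene, red for the 5 subunits, and black bars are list medians. The subunits lie between -0.09 and 0.35, within the spread of the other lists, and no gene shown passed the test.

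Proteins described as substrates or clients of DCAF1 were measured as RNA in 7 of 9 cases, with 5 above and 2 below shSC in both libraries and a median log2 fold change of 0.17. Lats2, the Hippo kinase gene, had 533 and 494 scaled counts in libraries 20 and 21, against 351 in shSC (0.54 ± 0.26, SE; limma adjusted p = 0.545). Lats1, its paralogue, had 1182 and 1406 in libraries 20 and 21, against 1144 in shSC (0.17 ± 0.23, SE; limma adjusted p = 0.858). Tet3 and Tet2, DNA demethylases on which the ligase places a single ubiquitin, had lower values. Tet3 had 412 and 357 in libraries 20 and 21, against 588 in shSC (-0.62 ± 0.26, SE; limma adjusted p = 0.474). Tet2 had 309 and 480 in libraries 20 and 21, against 584 in shSC (-0.60). After the length and GC correction the log2 fold change was -0.72 for Tet2 and 0.49 for Lats2. Ppp2r1a, the scaffold of the phosphatase PP2A, had 0.24. Of the genes for substrates of the receptor DTL, Setd8, a histone H4 methyltransferase, had 0.35, the cell cycle inhibitor Cdkn1a 0.30 and the replication licensing factor Cdt1 -0.05, the last changing sign to 0.10 after the length and GC correction.

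The genes most like each subunit were sought over the 3 libraries among 10062 genes with a mean of at least 100, by the Euclidean distance between log2 profiles centred on their own means. Gene models without a proper name were skipped in naming neighbours, though they count in the numbers within each distance. Of the other genes, Lman1 and Rhot1 were closest to Vprbp, Sntb2 and Rmdn3 to Ddb1, and Ankrd49 and Asns to Cul4a. Prmt5 and Stk3 were closest to Cul4b, and Wdr83os and Sec61a1 to Rbx1. All 10 lay within a distance of 0.01, where Vprbp had 11 genes, Ddb1 8, Cul4a 11, Cul4b 6 and Rbx1 6. Within 0.1 there were 851 genes for Vprbp, 595 for Ddb1, 966 for Cul4a, 434 for Cul4b and 807 for Rbx1.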

How the data were processed

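Per the labels' protocols, polyA RNA was made into stranded TruSeq libraries and read as pairs. Per the submitters' processing notes, the mouse build mm10 was used with DESeq 1.22.1, HTSeq 0.5.3, STAR 2.5.0a and cutadapt 1.6, whose roles and order are not stated; the organism label reads human, but the identifiers are mouse. The authors deposited 1 table of gene signal, scaled counts by its name. Every value was a whole number of reads (tolerance 0.001) divided by 1 factor per library: 0.956 for library 20, 1.03 for library 21 and 1.03 for shSC. In all, 100% of values came out whole. The 4 rows naming no gene (47.7% to 48.7% of reads) were left out. The strand setting, and the handling of reads shared by similar genes, are not given in the sources used here.

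Genes with a mean of at least 10 were tested with limma 3.58.1 (R 4.3.3, variance trend) on log2(scaled count + 1), a scale that understates the change of low genes, with Benjamini-Hochberg adjustment over all 12813 and a threshold of 0.05. There was 1 residual degree of freedom plus 11.9 prior ones, and shSC was assumed to vary like shNF2. An exact test of these libraries cannot go below 1/3. edgeR 4.0.16 and DESeq2 1.42.0, on the recovered reads, called 81 and 100 genes against 108; mgcv 1.9.3 fitted the length and GC trends, with human GENCODE stand-ins for 10330 genes (80.6%). Named genes were the subunits, Nf2, up to 4 members of smallest p per list, and the 2 nearest profiles per subunit, unnamed gene models skipped. Tceb2, Lats1, Ankrd1 and the cell type markers were named outside this rule. Members and lists were chosen with earlier results of these data known. One list is not reported here. The scripts were tested on simulated data. No coordinates or sequences are given.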

Additional observations from a re-analysis of the deposited data

How the results depend on the processing

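No subunit passed under any of the 11 alternatives with a test: pseudocounts of 0.5 and 10, no filter, a mean of at least 50, quantile normalization, TMM, robust moderation, a constant prior variance (no trend), DESeq2, edgeR, and the length and GC correction. Log2 fold changes ran from 0.16 to 0.25 for Vprbp, 0.33 to 0.50 for Ddb1, 0.16 to 0.30 for Cul4b and -0.10 to -0.02 for Rbx1. Cul4a ran from -0.07 to 0.05 and reversed, among these, with the length and GC correction (-0.069); so did Cdc34 (0.056) and Cdt1 (0.10), and Det1 under quantile normalization (0.015). With 1 shNF2 library left out, values with no test ran from 0.20 to 0.29 for Vprbp, 0.31 to 0.39 for Ddb1, -0.03 to 0.13 for Cul4a, 0.08 to 0.44 for Cul4b, -0.15 to -0.04 for Rbx1 and -1.75 to -1.66 for Nf2. Among the other named genes, the sign turned without library 21 for Cdc34 (0.45), Dda1 (0.11) and Det1 (0.013), and without library 20 for Ube2g1 (0.033). Nf2 (-1.72) had an adjusted p of 0.496 after quantile normalization and, with no variance trend, of 0.187 (-1.70), and so no longer passed. Over all genes, 108 passed; 232 did without a filter. limma called 0 genes after quantile normalization, where 882 had an unadjusted p under 0.05, and 0 with no trend, where 1036 did; the cause was not tested. No paired analysis was possible because shSC is 1 library and shares no replicate number with shNF2.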
